A study of Mus musculus with 12 samples.

Results

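The 7 genes described here were taken by symbol from a deposited table of 24421 genes. They are the glial precursor and migratory neural crest genes Erbb3, Ngfr, Fabp7 and Cdh6, together with Cdh19, AA465934 and Cpne5. Cdh19, AA465934 and Cpne5 were selected on their lower counts in homozygous Eftud2 mutant libraries, so the genotype differences below are a description and carry no test for these genes. All 7 passed the filter on low counts that left 14810 genes for testing. RNA came from C57Bl/6 mouse embryos with Eftud2, which encodes a GTPase of the spliceosome's U5 particle, altered in neural crest cells. The 12 libraries formed 4 groups of 3: heterozygous (Eftud2+/-) controls and homozygous (Eftud2-/-) mutants, each at embryonic day 9.0 (E9.0) and E9.5. The controls thus also carried 1 altered allele, and no wild-type library was analysed here. The labels do not name the Cre driver or the altered exons, nor do they give embryos per library or somite numbers. They also disagree on the tissue, which is variously neural crest cells, cranial nerve ganglia and the head.

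Neural crest cells leave the dorsal neural tube, migrate through the head and form facial skeleton, pigment cells and, in the cranial ganglia, neurons and all of the glia. Cells that take the glial path keep the transcription factor Sox10 and the receptors Erbb3 and Ngfr, and later add the adhesion molecule Cdh19 and the lipid-binding protein Fabp7, which mark Schwann cell precursors. Neuregulin on axons acts through Erbb3 paired with Erbb2 to keep these precursors alive. Several of these genes are not restricted to crest: Fabp7 also marks radial progenitors of the neural tube, and Cdh6 is found in neural folds and other embryonic epithelia.

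Total counts per library ran from 13914543 to 31172708, and the ribosomal transcript Rn45s took 4.40% to 37.4% of them, the highest share being that of heterozygous E9.0 replicate 1. That library also had the lowest scaling factor, 0.664, of a range up to 1.11. Levels are given as CPM (a gene's share of the scaled library total) after this scaling, and differences as log2 fold change ± standard error from 1 fit over all 12 libraries. Eftud2 itself had 275 to 302 CPM in heterozygous and 232 to 236 CPM in homozygous E9.0 libraries, and 248 to 264 against 221 to 226 CPM at E9.5. It fell by 0.29 ± 0.05 on the log2 scale at E9.0 (edgeR adjusted p = 0.0193, up to 0.0713 without heterozygous replicate 1 or homozygous replicate 1 or 3), and the E9.5 difference of −0.19 ± 0.05 did not pass (edgeR adjusted p = 0.0906). The E9.0 call was also lost with only the groups compared in the fit (edgeR adjusted p = 0.141) and with total counts only, where the change was −0.08 (edgeR adjusted p = 0.751). Markers of other cells were plentiful: the summed level of 16 neural progenitor genes was 1493 to 2040 CPM and that of 7 primitive erythroid genes 537 to 5200 CPM over the 12 libraries. Sox10 stood at 2.89 to 43.9 CPM. Mature Schwann cell genes were close to 0, with at most 9 counts of Gfap and 3 of S100b in any library, and of 8 melanoblast genes Tyr, Tyrp1 and Mlana reached at most 5 counts and Dct 22. The other 4 melanoblast genes, Mitf, Kit, Pmel and Ednrb, which are not all specific to that lineage, summed to 76.0 to 98.9 CPM. In such mixed RNA, fewer cells of a type and less RNA per cell cannot be told apart.

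Every one of the 7 genes had a negative fold change at each stage. Their median fold change was −0.31 at E9.0, and −0.45 for the E9.5 libraries, while the median of all 14810 genes was −0.00 at either stage. At E9.0, 3 of 7 were past the threshold of adjusted p 0.05 (Cdh19, AA465934 and Cpne5), where 0.155% of all tested genes were called lower. At E9.5, 3 of 7 were past it (Cdh19, AA465934 and Fabp7), against a background of 0.702%. Because these contrasts chose the genes, nothing is read from those shares. Without heterozygous E9.0 replicate 1, the library rich in Rn45s, the E9.0 fold changes were −2.33 for Cdh19, −1.29 for AA465934 and −1.001 for Cpne5. For the difference between the 2 genotype effects edgeR called 0 of the 7, against 0.0675% of all genes, with 2 at an unadjusted p under 0.05. DESeq2 called 1 and limma-voom 0. That contrast shares the libraries that chose the genes, so it too is a description. Several patterns were present within the set. Cdh19 and AA465934 were much lower at both stages, Cpne5 was lower mainly at E9.0, Fabp7 was lower at E9.5, and Erbb3, Ngfr and Cdh6 differed by 1.24-fold or less.

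**Figure D1:**
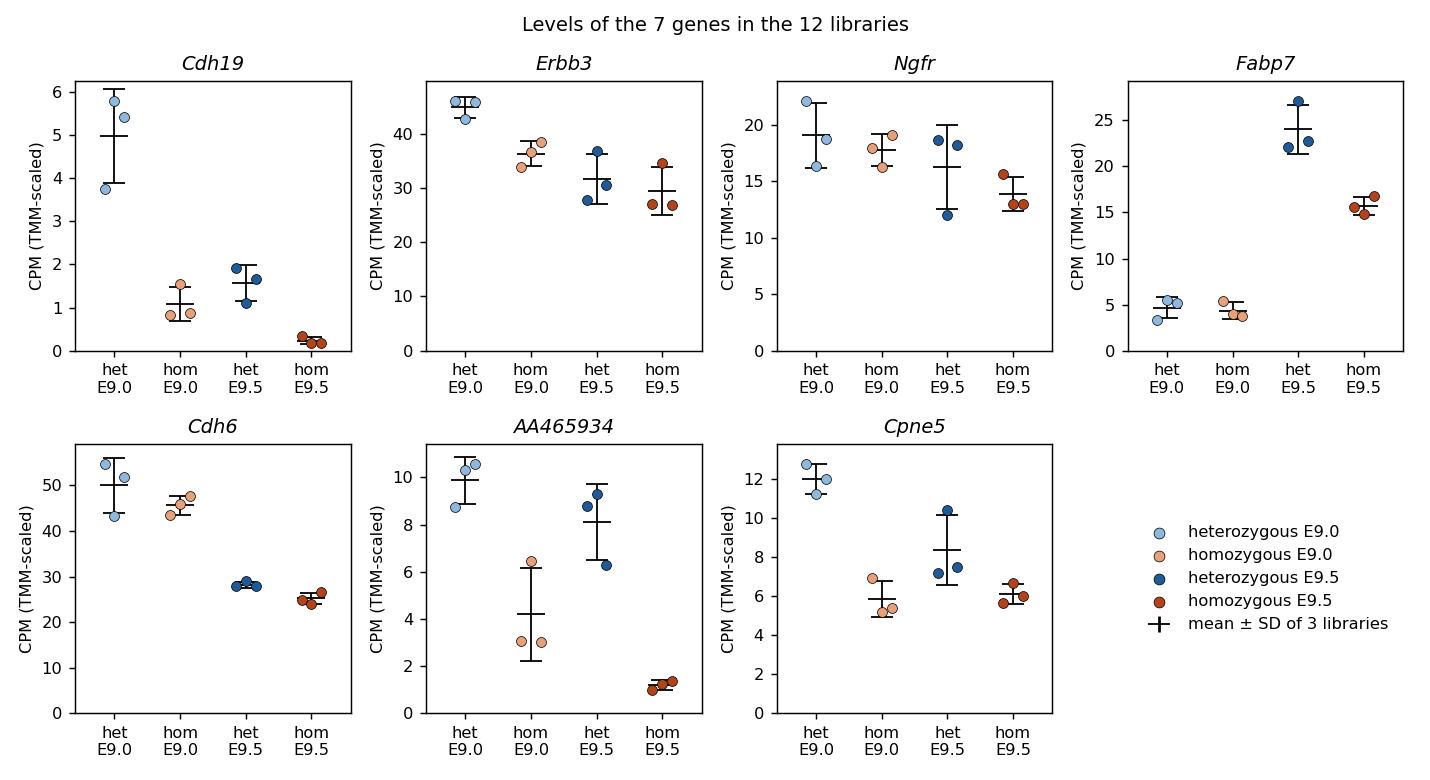
Scaled CPM (linear axes from 0, 1 panel per gene) of the 7 genes in each of the 12 libraries, with a point per library and the mean ± SD of each group of 3. Homozygous Cdh19 points lie below all heterozygous points of the same stage, while Ngfr points of the genotypes overlap at both stages.

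Cdh19, a cadherin of Schwann cell precursors, had the lowest fold change of the set at E9.0. It was at 3.74, 5.79 and 5.42 CPM in heterozygous replicates 1, 2 and 3 at E9.0, and at 0.827, 1.55 and 0.878 CPM in their homozygous counterparts. The E9.5 levels were 1.92, 1.12 and 1.67 CPM in heterozygous and 0.337, 0.184 and 0.188 CPM in homozygous libraries. The highest homozygous library lay under the lowest heterozygous one at each stage. The same held for 8.2% of all tested genes at E9.0 and 9.47% at E9.5. The Cdh19 fold change was −2.18 ± 0.29 at E9.0, a level 4.53-fold lower, and −2.70 ± 0.36 at E9.5, a level 6.49-fold lower. These were the fifth lowest and the eleventh lowest fold changes of all tested genes. The gene is a low one, and the homozygous E9.5 values rest on 5 to 10 counts per library. In the fits that left out 1 library, the fold change ranged from −2.56 to −2.03 at E9.0 and from −3.03 to −2.52 at E9.5.

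Cdh19 was also compared with Sox10 inside each library, a ratio that removes library scaling. Cdh19 CPM was 8.53% to 20.4% of Sox10 CPM in heterozygous and 3.23% to 6.31% in homozygous libraries at E9.0. At E9.5 the shares were 10.95% to 25.1% and 4.51% to 6.80%. The genotypes did not overlap at either stage, which is a description only, since Cdh19 was selected on its lower homozygous counts. Erbb3 was at 105% to 150% of Sox10 in heterozygous and 141% to 173% in homozygous E9.0 libraries, which overlap, and at 352% to 362% against 546% to 931% at E9.5, where the homozygous ratios were all the higher ones. Ngfr was at 50.3% to 57.7% of Sox10 in heterozygous and 66.4% to 91.9% in homozygous E9.0 libraries. At E9.5 the Ngfr shares were 118% to 243% and 315% to 448%. Its homozygous ratios were all the higher ones at both stages. Sox10, the divisor, itself had a fold change of −0.59 ± 0.18 at E9.0 and −1.14 ± 0.21 at E9.5. A gene with no change therefore gives a higher homozygous ratio. Ngfr CPM overlapped between genotypes at both stages, and Erbb3 CPM at E9.5, so these ratios are not read as a rise of either receptor.

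Cdh6, a cadherin of neural folds and early crest, was 1 of the more abundant genes of the set and changed little with genotype. Its level was 54.8, 43.3 and 51.9 CPM in heterozygous and 43.5, 45.8 and 47.7 CPM in homozygous E9.0 libraries. The E9.5 libraries had 27.9, 29.0 and 27.8 CPM when heterozygous and 24.96, 24.1 and 26.6 CPM when homozygous. The groups overlapped at E9.0 (−0.13 ± 0.08) and were narrowly apart at E9.5 (−0.17 ± 0.08), where 9.47% of all tested genes were likewise lower without overlap. Among 21 other cadherins and catenins tested, edgeR called none at E9.0, where 3 had an unadjusted p under 0.05 and DESeq2 called 0. At E9.5, where 1.19% of all tested genes were called higher, it called 1. This was the endothelial cadherin Cdh5, which rose (log2 fold change 0.70 ± 0.13, edgeR adjusted p = 0.011). DESeq2 and limma-voom also called Cdh8, lower, at that stage (edgeR −1.08 ± 0.27, adjusted p = 0.0606). The list's medians were −0.05 and 0.09. Cdh2, the N-cadherin of neuroepithelium and crest, had group means of 164 to 186 CPM.

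Of the receptors, Erbb3, which binds neuregulins, was at 46.0, 42.7 and 45.9 CPM in heterozygous and 33.8, 36.6 and 38.4 CPM in homozygous E9.0 libraries. Those groups were apart, by −0.31 ± 0.11, and 8.2% of all tested genes were lower without overlap at that stage. At E9.5 its levels were 27.7, 36.7 and 30.5 CPM in heterozygous and 27.0, 34.6 and 26.9 CPM in homozygous libraries. These groups overlapped, the fold change was −0.10 ± 0.11, and without heterozygous replicate 2 it was 0.03. The partner receptor Erbb2 was at 69.8 ± 7.01 CPM in heterozygous and 59.6 ± 4.82 CPM in homozygous E9.0 libraries (mean ± SD, n = 3 each). Its fold changes of −0.22 ± 0.08 at E9.0 and 0.02 ± 0.07 at E9.5 did not pass (edgeR adjusted p = 0.223 and 0.958). The ligand Nrg1 had 0.13 ± 0.19 at E9.0 and 0.57 ± 0.18 at E9.5 (edgeR adjusted p = 0.817 and 0.143). None of the 12 other neuregulin and ERBB genes tested was called by edgeR or DESeq2 at either stage, with 3 at an unadjusted p under 0.05 at each, and their medians were 0.15 and 0.08.

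Ngfr encodes the low-affinity neurotrophin receptor, long used to isolate migrating crest cells. It was at 22.1, 16.4 and 18.7 CPM in heterozygous and 18.0, 16.3 and 19.0 CPM in homozygous E9.0 libraries. By E9.5 it stood at 18.6, 11.97 and 18.2 CPM in heterozygous and 15.6, 13.0 and 12.9 CPM in homozygous libraries. Heterozygous replicate 2 was the lowest of its group at both stages, and the genotypes overlapped at both. Its fold changes were −0.10 ± 0.16 and −0.23 ± 0.15 at the earlier and later stage. Without heterozygous E9.0 replicate 1 the former was 0.01. Of 14 neurotrophins, their receptors and partners, edgeR called 0 at either stage, with 3 and 5 at an unadjusted p under 0.05 at E9.0 and E9.5. DESeq2 called 0 at E9.0 and 2 at E9.5, both higher in homozygous libraries: the receptor genes Ntrk2 and Sorcs2.

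Fabp7, a fatty acid binding protein of glial precursors and radial progenitors, showed no separation by genotype at E9.0. It was at 3.38, 5.47 and 5.16 CPM in heterozygous and 5.41, 3.95 and 3.72 CPM in homozygous libraries (−0.14 ± 0.18). The E9.5 levels were 22.1, 27.1 and 22.8 CPM in heterozygous and 15.5, 14.8 and 16.8 CPM in homozygous libraries. Here every homozygous library lay under every heterozygous one, as for 9.47% of all tested genes at that stage. The Fabp7 fold change was −0.61 ± 0.13, a level 1.53-fold lower. Omitting the 6 E9.5 libraries one at a time gave fold changes of −0.67 to −0.51 and kept the call in 2 of 6 fits, those without heterozygous replicate 1 or 3. The difference between its 2 genotype effects was −0.47 ± 0.22. Among 5 other intracellular lipid-binding genes tested, edgeR called 0 at E9.0, with 1 at an unadjusted p under 0.05 and 0 by DESeq2. At E9.5, where 0.702% of all tested genes were called lower, it called 1. Crabp1, a retinoic acid binding protein of crest and hindbrain, fell by 0.53 ± 0.10 (log2 scale, edgeR adjusted p = 0.0138). That call was lost with total counts only and with only the groups compared in the fit (edgeR adjusted p = 0.085 and 0.0549).

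Cpne5 encodes a copine, a calcium-dependent phospholipid-binding protein. It was at 12.8, 11.2 and 11.997 CPM in heterozygous and 6.92, 5.21 and 5.40 CPM in homozygous E9.0 libraries. The levels at E9.5 were 7.16, 10.4 and 7.49 CPM in heterozygous and 5.67, 6.69 and 6.00 CPM in homozygous libraries. The groups were well apart at E9.0 (−1.04 ± 0.16, 2.06-fold lower) and by less than 1 CPM at E9.5 (−0.45 ± 0.15). Leaving out the high heterozygous E9.5 replicate 2 brought the latter to −0.25. Of all tested genes, 8.2% at E9.0 and 9.47% at E9.5 were lower without overlap. The difference between the stages was 0.59 ± 0.22. Of 6 other copines tested, edgeR and DESeq2 called 0 at both stages, with 1 at an unadjusted p under 0.05 at E9.0 and 0 at E9.5, and their medians were −0.01 and 0.09. Reads of Cpne5 could include some of AC162182.2, an opposite-strand transcript that shares 146 exonic bases with it, since the strand setting of the counting is not given in the sources used here.

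AA465934 is a noncoding transcript of 711 exonic bases at chr11:83291699-83294632 on the plus strand of GRCm38, and it hosts the small nucleolar RNA Snord7. Its upstream sequence is shown because this gene had the lowest fold change of the set at E9.5. The RefSeq tables (GRCm38.p6) held windows of 300 bases around the RefSeq start for 5 of the 7 genes. The bases before its start, chr11:83291449-83291698, plus strand, read 5′ to 3′ as follows, trimmed to end before the first annotated exon, all in lower case because none of the motifs searched occurs in them.
AA465934 upstream: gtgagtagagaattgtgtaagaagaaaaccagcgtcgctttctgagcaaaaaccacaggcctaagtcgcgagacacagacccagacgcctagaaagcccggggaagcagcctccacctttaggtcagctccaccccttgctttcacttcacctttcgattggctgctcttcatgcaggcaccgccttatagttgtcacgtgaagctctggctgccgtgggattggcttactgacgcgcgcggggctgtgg

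AA465934 was at 8.73, 10.3 and 10.6 CPM in heterozygous and 3.08, 6.47 and 3.04 CPM in homozygous E9.0 libraries. In the later embryos it stood at 8.78, 9.30 and 6.29 CPM in heterozygous and 0.978, 1.26 and 1.39 CPM in homozygous libraries. Homozygous E9.0 replicate 2 lay between the other homozygous libraries and the controls, and the genotypes did not overlap at either stage. Of all tested genes, 8.2% at E9.0 and 9.47% at E9.5 were lower without overlap. The AA465934 fold changes were −1.21 ± 0.24 (2.31-fold lower) at E9.0 and −2.75 ± 0.26 (6.74-fold lower) at E9.5. The E9.0 call was lost in 5 of the 6 fits that left out 1 E9.0 library, the exception being that without homozygous replicate 2, and its fold change there ranged from −1.70 to −1.02. The difference between stages was −1.54 ± 0.36, which edgeR and limma-voom did not call and DESeq2 did. That difference is a description only, since AA465934 was selected on its lower counts in these homozygous libraries. Ap2b1, a clathrin adaptor subunit gene that starts 4391 bases downstream, was looked up for its position and had −0.04 ± 0.06 at E9.0 and 0.05 ± 0.06 at E9.5.

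**Figure D2:**
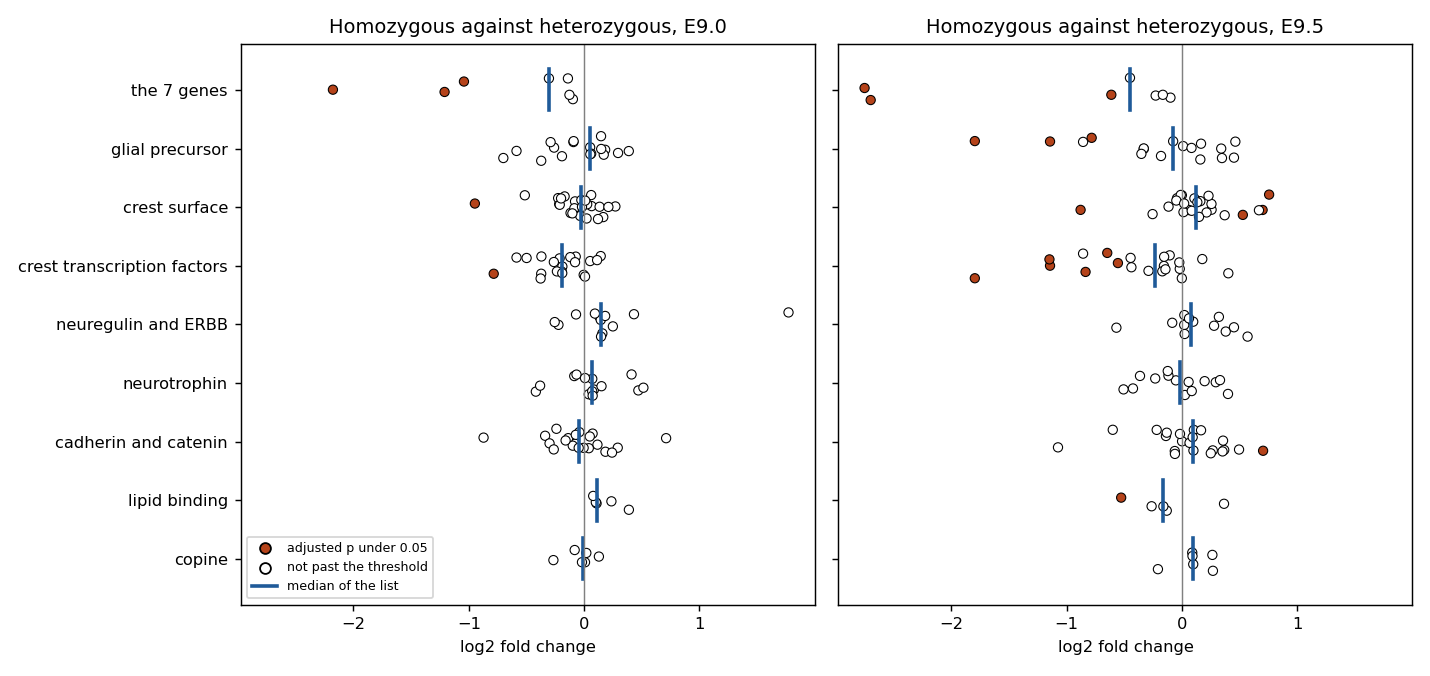
Log2 fold change of homozygous against heterozygous libraries at E9.0 and E9.5 (horizontal axes, panels), with 1 point per tested gene and 1 line per list, filled points at an adjusted p under 0.05 (edgeR) and a bar at each list's median. The median of the 7 genes is −0.31 at E9.0 and −0.45 at E9.5, and the medians of the other lists plotted (glial, crest, ligand and receptor, cadherin, lipid-binding and copine genes) lie between −0.23 and 0.15. The marker lists of other cells are not plotted, among them endothelium with medians of 0.22 and 0.63.

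Other glial precursor genes were unevenly affected. Of 17 tested, edgeR called 0 at E9.0, with 5 at an unadjusted p under 0.05 and 0 by DESeq2, and 3 at E9.5, all lower, Sox10 and Foxd3 among them, where 0.702% of all tested genes were called lower. The medians were 0.05 and −0.08, and DESeq2 called 5 lower and 1 higher at E9.5. Sox10, the regulator of crest and its glia, was at 35.9 ± 7.77 and 23.8 ± 3.89 CPM in heterozygous and homozygous E9.0 libraries, and at 8.83 ± 1.27 and 3.98 ± 1.04 CPM at E9.5 (mean ± SD, n = 3 each). It fell by 1.14 ± 0.21 on the log2 scale at E9.5 (edgeR adjusted p = 0.0148, up to 0.0606 without heterozygous or homozygous replicate 2), and −0.59 ± 0.18 at E9.0 did not pass (edgeR adjusted p = 0.195). Foxd3, a factor of premigratory crest and early glia, fell by 1.80 ± 0.34 at E9.5, from 2.32 ± 0.704 to 0.654 ± 0.394 CPM (edgeR adjusted p = 0.0148, up to 0.0866 without homozygous replicate 2 or 3). That call was also lost with only the groups compared in the fit (edgeR adjusted p = 0.0624). The Foxd3 groups overlapped at E9.0, with means of 8.52 and 8.73 CPM (0.05, edgeR adjusted p = 0.951).

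Other surface genes of migrating crest did not share one direction. Of 24 tested, edgeR called 1 lower at E9.0, and 1 lower and 3 higher at E9.5, with medians of −0.03 and 0.12. Of all tested genes 0.155% were called lower at E9.0, and 0.702% lower and 1.19% higher at E9.5. The one lower at both stages was L1cam, an adhesion molecule of axons and migrating crest. Heterozygous and homozygous E9.0 libraries had 6.44 ± 0.714 and 3.33 ± 0.199 CPM of it, a change of −0.95 ± 0.15 (edgeR adjusted p = 0.00551). The E9.5 means were 5.45 ± 0.501 and 2.97 ± 0.271 CPM, a change of −0.88 ± 0.14 (edgeR adjusted p = 0.00332). The E9.0 call was lost when libraries were scaled by total counts only (edgeR adjusted p = 0.102), and neither was lost on leaving out 1 library. The 3 that rose at E9.5 were Nrp2, a semaphorin receptor (0.70 ± 0.09, edgeR adjusted p = 0.00115), Cd44, a hyaluronan receptor (0.76 ± 0.09, edgeR adjusted p = 0.000637), and Mcam, an adhesion molecule also found on vessels (0.53 ± 0.10, edgeR adjusted p = 0.014). Without heterozygous replicate 2 or homozygous replicate 3 the Mcam call was lost, with an edgeR adjusted p up to 0.0637, as it was with total counts only (0.231). Of 20 crest transcription factors, 1 was called lower at E9.0 and 6 at E9.5, against 0.155% and 0.702% of all tested genes. Of these 6, Sox10 and Foxd3 are also on the glial list. Pax7 lost its E9.5 call in 3 of 6 fits that left out 1 library (edgeR adjusted p up to 0.0789). With only the groups compared in the fit, Pax7 and Pax3 lost theirs (edgeR adjusted p = 0.0786 and 0.0649). Msx1 lost its E9.5 call with total counts only (edgeR adjusted p = 0.0632). Tfap2b, an AP-2 factor of crest, was the one lower at both stages, by −0.78 ± 0.10 and −1.15 ± 0.10 (edgeR adjusted p = 0.000773 and 1.99e-05), the E9.0 call being lost with total counts only (0.108).

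Marker lists of other cells moved with genotype as well. The summed level of 12 endothelial genes was 297 to 320 CPM in heterozygous and 352 to 361 CPM in homozygous E9.0 libraries. At E9.5 it was 189 to 270 against 343 to 388 CPM, and 8 of the 12 genes rose at that stage by the edgeR test, where 1.19% of all tested genes rose. Of these 8, Cdh5, Flt1, Kdr and Tek kept the call whichever E9.5 library was omitted. Sox18 lost it in 5 of 6 such fits, Egfl7 and Ramp2 in 4 and Tie1 in 2 (edgeR adjusted p up to 0.147). With all libraries kept, the Kdr, Egfl7, Ramp2 and Tie1 calls were lost with total counts only and with only the groups compared in the fit. Their edgeR adjusted p then reached 0.124, 0.571, 0.125 and 0.0777. Sox18 lost its call with only the groups compared (edgeR adjusted p = 0.086). The summed level of 18 cranial ganglion neuron genes was 255 to 258 against 263 to 267 CPM at E9.0, and 362 to 384 against 343 to 352 CPM at E9.5, where 3 fell (Pou4f1, Tlx3 and Tubb3). Of these 3, only the Tubb3 call was kept whichever of the 6 E9.5 libraries was omitted. Neural progenitor sums overlapped between genotypes at both stages, at 1552 to 1607 and 1493 to 1627 CPM at E9.0 and at 1815 to 2018 and 1899 to 2040 CPM at E9.5, and edgeR called 0 of the 16 genes at either stage. At an unadjusted p under 0.05 these were 0 and 2, and DESeq2 called 0. The part of these shifts in the values of the 7 genes was not tested.

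The set did not move in one direction between E9.0 and E9.5. These stage contrasts did not choose the genes, but they use the same libraries, so for Cdh19, AA465934 and Cpne5, selected on those counts, they too are given as a description. In heterozygous libraries edgeR called 4 of 7 lower and 1 higher, where 16% of all tested genes fell and 19.2% rose. In homozygous libraries it called 4 lower and 1 higher, against 15.8% and 19.6%. The genes called lower include the selected Cdh19 and Cpne5 in heterozygous and Cdh19 and AA465934 in homozygous libraries. Nothing is therefore read from these counts beside the shares. Fabp7 rose by 2.33 ± 0.15 in heterozygous and 1.86 ± 0.16 in homozygous libraries (edgeR adjusted p = 2.39e-08 and 3.55e-07), from 4.67 ± 1.13 to 24.0 ± 2.70 CPM in the former. Cdh6 fell by 0.82 ± 0.08 and 0.86 ± 0.08 (edgeR adjusted p = 1.7e-06 and 1.21e-06). With total counts only, the heterozygous Cdh6 change was −0.44 and the call was kept.

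The upstream sequences of these 2 genes are shown because they moved in opposite directions with stage. Capitals mark matches to the SOX motif ACAAAG and to the AP-2 motif GCCNNNGGC, which were searched on both strands together with a further SOX motif, ACAATG. The Fabp7 run is chr10:57784673-57784880, plus strand, and the Cdh6 run is chr15:13173676-13173925, minus strand, both GRCm38.p6 and 5′ to 3′.
Fabp7 upstream: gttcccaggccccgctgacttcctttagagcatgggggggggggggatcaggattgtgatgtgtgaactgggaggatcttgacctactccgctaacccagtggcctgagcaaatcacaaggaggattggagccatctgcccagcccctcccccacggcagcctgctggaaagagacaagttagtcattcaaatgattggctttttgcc
Cdh6 upstream: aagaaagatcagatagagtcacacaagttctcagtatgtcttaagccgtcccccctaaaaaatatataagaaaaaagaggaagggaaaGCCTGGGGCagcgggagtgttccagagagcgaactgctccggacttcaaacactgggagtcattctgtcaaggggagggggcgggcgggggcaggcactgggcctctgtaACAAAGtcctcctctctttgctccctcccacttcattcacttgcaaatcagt
Over all 32851 windows of 300 bases in the table, 18.7% held ACAAAG, 12.6% ACAATG and 16.6% GCCNNNGGC. The Cdh6 window held 1 ACAAAG and 1 GCCNNNGGC, the Cpne5 window 2 GCCNNNGGC, and those of Fabp7, Ngfr and AA465934 had no match. The Cpne5 window lies wholly within the annotated gene, so its matches are not in sequence upstream of that gene. A match is a description of the letters and does not show a bound site.

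Cdh19 had a stage change of −1.68 ± 0.25 in heterozygous and −2.20 ± 0.41 in homozygous libraries, and the homozygous E9.5 group was the lowest of the 4. AA465934 had −0.28 ± 0.21 in heterozygous and −1.83 ± 0.29 in homozygous libraries. Erbb3 fell by 0.50 ± 0.11 in heterozygous and 0.30 ± 0.11 in homozygous libraries (edgeR adjusted p = 0.00204 and 0.0477). With total counts only, the heterozygous change was −0.13 and its call was lost (edgeR adjusted p = 0.481). The homozygous Erbb3 groups overlapped, and that call was lost in 5 of the 6 fits that left out 1 library (edgeR adjusted p up to 0.177), the exception being that without homozygous E9.5 replicate 2. Cpne5 had −0.51 ± 0.14 in heterozygous libraries, a call lost without heterozygous E9.5 replicate 1 or 3, and 0.08 ± 0.16 in homozygous ones. With total counts only, the heterozygous Cpne5 change was −0.14 and was not called. Ngfr did not pass in either background, at −0.22 ± 0.15 and −0.36 ± 0.16 (edgeR adjusted p = 0.275 and 0.092). Sox10 fell with stage in heterozygous libraries by 2.02 ± 0.19 (edgeR adjusted p = 4.2e-06).

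**Figure D3:**
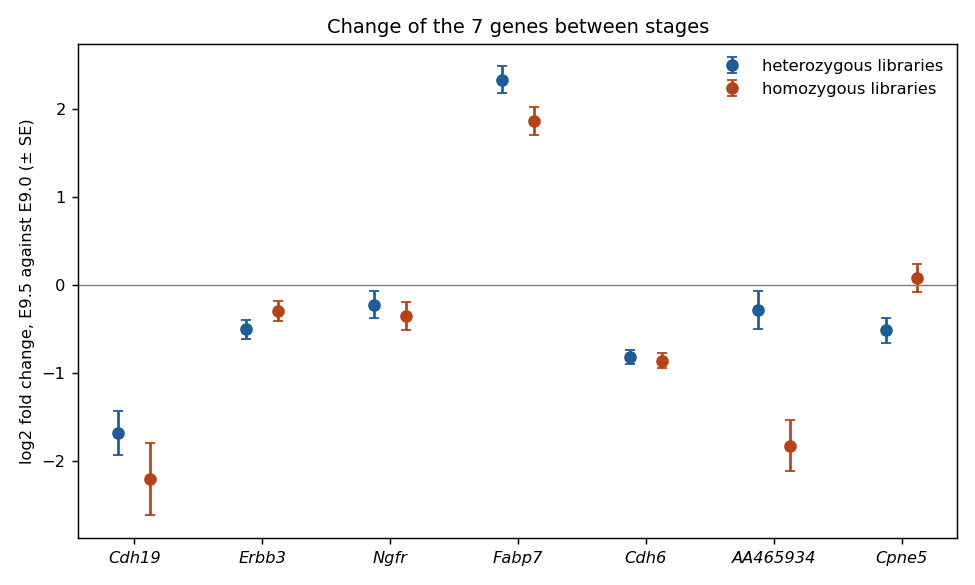
Log2 fold change of E9.5 against E9.0 for the 7 genes in heterozygous and in homozygous libraries, with bars of ± 1 standard error. Fabp7 lies above 0 in both backgrounds, at 2.33 and 1.86, and AA465934 is at −0.28 in heterozygous but −1.83 in homozygous libraries.

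Genes were compared roughly, per kilobase of all annotated exons of a gene combined. That length ran from 711 bases for AA465934 to 13571 for Cpne5 and can exceed that of the transcripts present. The order at heterozygous E9.0 was AA465934 at 13.9 CPM per kilobase, Erbb3 at 7.46, Cdh6 at 5.54, Ngfr at 5.53, Fabp7 at 3.73, Cdh19 at 1.17 and Cpne5 at 0.884. Cdh6 and Ngfr did not differ beyond their spread. At heterozygous E9.5 Fabp7 led at 19.2 CPM per kilobase, above AA465934 at 11.4 and Erbb3 at 5.26, with Cdh19 last at 0.367. In homozygous E9.5 libraries Fabp7 still led, at 12.6 CPM per kilobase, whereas AA465934 stood below Erbb3, Ngfr and Cdh6 to 1.70 and Cdh19 was at 0.0552.

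The 7 genes did not form one pattern across libraries. Over the 12 libraries, Pearson's r of log2 CPM was positive for 15 of 21 gene pairs and ranged from −0.92 (Fabp7 with Cdh6) to 0.91 (Cdh19 with AA465934). After the group means were removed it was positive for 11 pairs and negative for 10. Cdh19 and AA465934 then had 0.34, and Cdh19 and Cpne5 had −0.78. With Sox10, r over the libraries was 0.96 for Cdh6 and 0.81 for Cdh19, and after removal of the group means 0.45 and −0.07. These values are descriptions over 12 libraries that share 4 groups and 1 scaling. The spread within groups differed too: the SD of log2 CPM about the group means was 0.39 for Cdh19 and 0.37 for AA465934, but 0.10 for Cdh6.

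Among 13087 genes with at least 1 CPM on average, the one whose log2 CPM was most like that of AA465934 was En2, a homeobox gene of midbrain and hindbrain, with r = 0.97 over the 12 libraries and 0.61 after the group means were removed. En2 was at 25.5, 22.4 and 35.3 CPM in heterozygous and 7.89, 12.5 and 7.23 CPM in homozygous E9.0 libraries. The E9.5 values were 24.3, 49.7 and 30.6 CPM (heterozygous) and 1.05, 1.81 and 1.27 CPM (homozygous). Homozygous E9.0 replicate 2 was the highest of its group for both genes. Without the homozygous E9.5 group r was 0.87 over 9 libraries. Dmbx1 (r = 0.93), Mum1 (0.92), Pax3 (0.91) and Tal2 (0.90) followed, and with no scaling beyond total counts En2 still led and 3 of these 5 genes were the same. None of the 5 is on the glial precursor list, but Pax3 is on that of crest transcription factors. It was called lower at E9.5 (−0.65, edgeR adjusted p = 0.00544), a call lost with only the groups compared in the fit (0.0649). Dmbx1 and Tal2 are transcription factor genes of the midbrain, and after the group means were removed their r was 0.09 and 0.26.

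**Figure D4:**
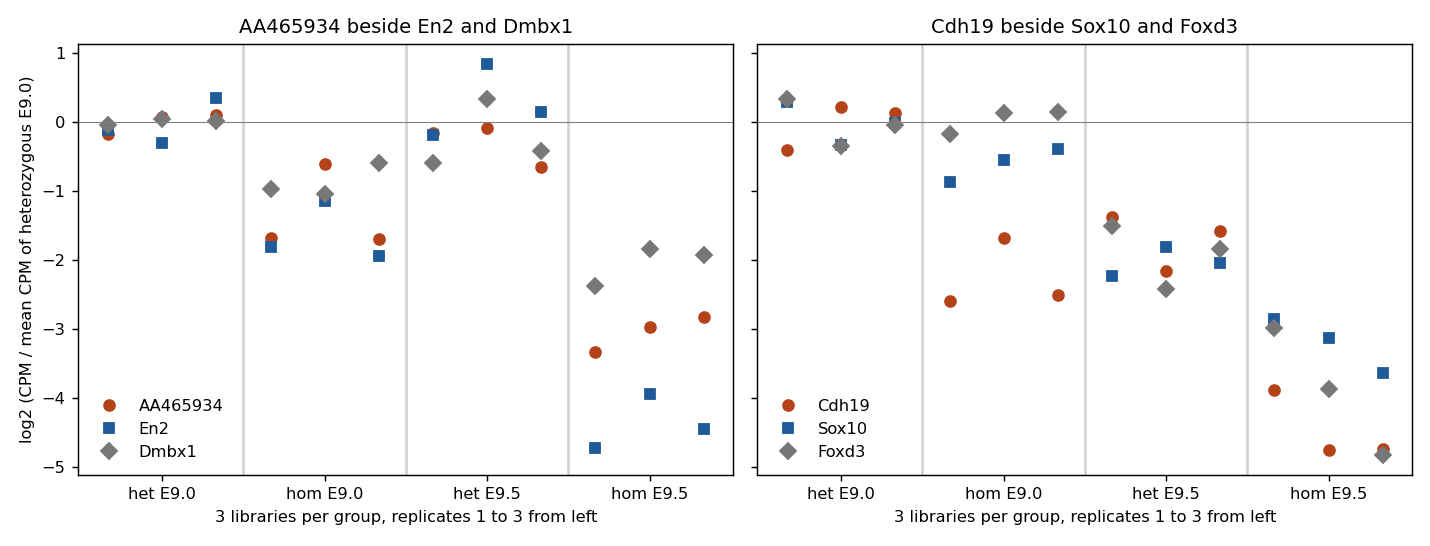
Log2 ratio of each library's CPM to the gene's mean CPM in heterozygous E9.0 libraries (vertical axis), by group with 3 libraries each, for AA465934 beside En2 and Dmbx1 (left) and Cdh19 beside Sox10 and Foxd3 (right). AA465934 and En2 are low in homozygous libraries of both stages, while Sox10 and Foxd3 are low in E9.5 libraries of both genotypes and Foxd3 overlaps between genotypes at E9.0.

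Fabp7 was most like Tubb2b, a tubulin of young neurons (r = 0.99), followed by Hes6, a gene of neurogenesis (0.99), and Rspo2 (0.98). Tubb2b had 139 CPM in both E9.0 groups, 267 CPM in heterozygous and 232 CPM in homozygous E9.5 libraries on average. It kept r = 0.99 with total counts only, under which 2 of the 5 genes nearest Fabp7 were the same. The nearest genes of Cdh19 (Arrb1, 0.95), Erbb3 (Fnip2, 0.97) and Cdh6 (Hirip3, 0.98) depended on the scaling. None of the 5 genes nearest each was the same with total counts only, while 4 or 5 of 5, with the same first gene, were the same with RLE or upper-quartile factors.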

How the data were processed

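RNA-seq libraries from 12 samples were analysed from 1 table of raw counts that the authors deposited, with whole-number counts per gene symbol and no normalization. Per the submitters' processing notes, cutadapt, STAR, featureCounts and MultiQC were used with build mm10; versions, annotation and strand setting are not given in the sources used here. Groups came from the titles and genotype labels.

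The 4 group means were fitted to all 12 libraries in R 4.3.3 with edgeR 4.0.16 (filterByExpr, TMM scaling, robust quasi-likelihood F test, two-sided), and p-values were adjusted by Benjamini-Hochberg over 14810 genes, with a threshold of 0.05. Standard errors were derived from the fold change and its F statistic. DESeq2 1.42.0 and limma-voom (limma 3.58.1) were alternatives, with other scalings and filters, a replicate block and each library left out. The script was tested on simulated counts. Nothing says that replicates came from separate embryos or litters, so p-values measure the spread between these samples. No pair of libraries was counted as 1 sample. Lengths and positions are from GENCODE (GRCm38) and upstream sequences from RefSeq (GRCm38.p6). Likeness used log2 CPM with a prior count of 2.

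The 7 genes and the other lists were chosen with earlier results of these data known. Named genes were the 7, a few fixed ones (Eftud2, Sox10, Foxd3, Tfap2b, Erbb2, Nrg1), each list's called and 3 most abundant genes, and the 5 genes most like each of the 7; Ap2b1, Ntrk2, Sorcs2 and the genes nearly at 0 were added afterwards. A few named genes are not reported here.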

Additional observations from a re-analysis of the deposited data

Results flagged for a closer look

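Cd44 and Msx1, surface or crest genes outside the set of 7, had a genotype effect that differed between the stages by the edgeR test of that difference. For Cd44 the effect at E9.5 exceeded that at E9.0 by 0.86 ± 0.14 in log2 units (edgeR adjusted p = 0.0213), with 12.5 ± 0.146 CPM in heterozygous and 21.1 ± 1.80 CPM in homozygous E9.5 libraries and overlapping E9.0 groups. In 8 of the 12 fits that left out 1 library this call was lost (edgeR adjusted p up to 0.113), as it was with limma-voom (adjusted p = 0.0588) and with total counts only (edgeR adjusted p = 0.557). For Msx1, a homeobox gene of crest and facial mesenchyme, the difference was −0.67 ± 0.10 (edgeR adjusted p = 0.0198), and the call was lost in 5 of 12 such fits (edgeR adjusted p up to 0.0917) and with total counts only (0.136). Pou4f1, a factor of sensory neurons, was higher in every homozygous than in every heterozygous library at E9.0 (0.21 ± 0.21) and lower in every one at E9.5 (−0.95 ± 0.17). The E9.0 change of Pou4f1 did not pass (edgeR adjusted p = 0.703). The test of the difference between its 2 genotype effects gave −1.16 ± 0.27 and did not pass (edgeR adjusted p = 0.18), whereas DESeq2 called it.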

How the results depend on the processing

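Of the 7 genes, edgeR called 3 by genotype at each stage, 0 for the difference between stages, and 5 for stage in heterozygous and in homozygous libraries. On leaving out 1 library they ranged from 2 to 3, 2 to 3, 0 to 0, 4 to 5 and 4 to 5. For the difference between stages DESeq2 called 1 (AA465934, selected on these libraries) and limma-voom 0. Total counts only gave 3 for stage in heterozygous libraries, and a mean of at least 50 counts gave 3 in homozygous ones, where Cdh19 could not be tested. With total counts only the median of all genes shifted to 0.19 at E9.0, and Ngfr, Fabp7 and Cdh6 turned to 0.11, 0.039 and 0.079. The stage change in heterozygous libraries then had a median of 0.38 over all genes, and Ngfr and AA465934 turned to 0.17 and 0.072. Leaving out 1 library turned Ngfr at E9.0 (range −0.20 to 0.010, the latter without heterozygous replicate 1), Erbb3 at E9.5 (−0.23 to 0.026, without heterozygous replicate 2) and the stage difference of Cdh6 (−0.10 to 0.057, without heterozygous E9.0 replicate 2). The cause of these turns was not tested. Among the 11 alternatives that kept all libraries, the Erbb3 stage call in homozygous libraries was lost in 5, the AA465934 call at E9.0 in 3 and the Fabp7 call at E9.5 in 1 (total counts only). Total counts only left 123 genes called at E9.5 against 280, and DESeq2 216 against 87 at E9.0 and 448 at E9.5.

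The labels share replicate numbers across groups, but deviations of same-numbered libraries correlated at −0.28 to 0.20, so the numbers were not taken to pair libraries. With a replicate block, edgeR called 3 of the 7 by genotype at each stage, 0 for the difference, and 5 and 6 for stage, Ngfr being the one gained. The likeness checks by scaling and by group were chosen after seeing the data. Depth limits Cdh19 most, at 5 to 10 counts in homozygous E9.5 libraries.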
